A study of Mus musculus with 12 samples.

Results

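The core genes of the endocannabinoid system were followed in 2 brain regions of young mice after a dopamine lesion. The set holds 8 of the 21872 gene symbols in the deposited table, taken by name: the receptor gene Cnr1, the synthetic enzymes Dagla, Daglb and Napepld, and the degrading enzymes Mgll, Abhd6, Abhd12 and Faah. All 8 passed the filter on low counts in every comparison. The 12 libraries came from C57BL/6J mice aged 24 days after birth, 6 from prefrontal cortex and 6 from striatum. In each region, 3 libraries carried the label ADHD, here called lesioned: attention-deficit/hyperactivity disorder was modelled after birth with 6-hydroxydopamine (6-OHDA), which destroys dopamine neurons. The other 3 were controls, labelled CTL. The lesion is recorded as a genotype in the labels, with no allele or transgene named, and no agent is named for the controls. The dose, route and day of the toxin, the sex of the mice and any measure of dopamine loss were not given in the sources used here. Libraries are named by group and number. No label states that the 3 libraries of a group were separate animals, or that a number ties a prefrontal to a striatal library, so the p-values rest on the spread of these libraries alone, which may be technical.

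Endocannabinoids are lipids that neurons make on demand and that act back on the terminals that contact them. CB1, the product of Cnr1, sits mainly on axon terminals and lowers transmitter release. The main ligand, 2-arachidonoylglycerol (2-AG), is made by the diacylglycerol lipases and broken down by monoacylglycerol lipase, ABHD6 and ABHD12, and the other, anandamide, can be made by the phospholipase NAPE-PLD and is broken down by fatty acid amide hydrolase. In the striatum, CB1 is abundant on the projection neurons and takes part in the depression of cortical input, a form of plasticity that depends on dopamine.

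In the GENCODE M21 models of GRCm38 (mm10), the genes lay on 6 chromosomes. Cnr1 was at chr4:33924593-33948831 on the plus strand and Faah at chr4:115967145-116017926 on the minus strand. Dagla was at chr19:10245265-10304877 (minus), Daglb at chr5:143464584-143505942 (plus) and Napepld at chr5:21662901-21701396 (minus). Mgll was at chr6:88724412-88828360 (plus), Abhd6 at chr14:8002902-8056763 (plus) and Abhd12 at chr2:150832493-150904741 (minus). Of the exon bases of Daglb, 24.1% overlap Rac1 on the other strand. Since the strand setting of the counting was not given in the sources used here, the counts of Daglb are uncertain, and those of Mgll, with 3.29% of its exon bases over the antisense gene Gm26588, less so.

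RefSeq promoter windows (GRCm38.p6) were found for 6 of the 8 members, all but Dagla and Abhd12. Cnr1 has 3 such windows, Mgll and Abhd6 have 2 each and Faah has 1. For the 4 members on which the comparisons turn, the window of the RefSeq start farthest upstream is shown, 5′ to 3′ on the gene's strand. It ends at the base before that start or, for Faah, before the GENCODE start. RefSeq and GENCODE starts differ for Cnr1, Abhd6 and Faah. Capitals mark, on either strand, the GC box with the letters GGGCGG, the promoter element that is named for its letters CCAAT, and the E-box that reads CACGTG in full.
Cnr1: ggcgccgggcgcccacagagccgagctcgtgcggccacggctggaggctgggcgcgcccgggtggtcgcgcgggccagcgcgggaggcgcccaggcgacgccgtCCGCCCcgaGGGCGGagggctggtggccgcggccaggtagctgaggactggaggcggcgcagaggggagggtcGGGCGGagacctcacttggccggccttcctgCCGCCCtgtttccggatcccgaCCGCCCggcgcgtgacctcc
Mgll: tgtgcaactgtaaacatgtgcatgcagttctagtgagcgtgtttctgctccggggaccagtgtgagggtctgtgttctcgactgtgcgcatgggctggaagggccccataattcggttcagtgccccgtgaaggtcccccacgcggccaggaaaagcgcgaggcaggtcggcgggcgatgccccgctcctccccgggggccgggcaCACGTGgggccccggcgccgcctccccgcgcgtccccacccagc
Abhd6: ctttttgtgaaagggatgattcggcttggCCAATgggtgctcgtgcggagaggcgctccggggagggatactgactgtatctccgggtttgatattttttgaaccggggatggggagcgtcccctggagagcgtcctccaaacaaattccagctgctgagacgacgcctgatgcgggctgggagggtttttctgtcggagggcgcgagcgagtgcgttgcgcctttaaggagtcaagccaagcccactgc
Faah: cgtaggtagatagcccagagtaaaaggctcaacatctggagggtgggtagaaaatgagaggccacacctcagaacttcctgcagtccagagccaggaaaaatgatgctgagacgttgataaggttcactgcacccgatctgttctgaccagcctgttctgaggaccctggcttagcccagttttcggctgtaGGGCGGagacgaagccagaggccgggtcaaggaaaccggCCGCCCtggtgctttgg
The Cnr1 window (chr4:33924014-33924263, plus strand) had 79.2% GC, 36 CpG and 5 GC boxes. The Mgll window (chr6:88724162-88724411, plus) had 68% GC, 23 CpG and 1 E-box, and the Abhd6 window (chr14:8002638-8002887, plus) had 58.4% GC, 18 CpG and 1 CCAAT box. The Faah window (chr4:116017927-116018174, minus, 248 bases) was the poorest in CpG of the 4, with 55.6% GC, 9 CpG and 2 GC boxes. Among 32851 RefSeq windows of 250 bases, the median GC was 52.4% and the median number of CpG 6. The other windows of these genes differed: those of Cnr1 had 68.8% and 49.2% GC and no GC box, that of Mgll had 74.8% GC and 1 GC box, and that of Abhd6 had 62.8% GC and 1 GC box. A GC box was in 32.7% of the RefSeq windows, a CCAAT box in 33.8% and an E-box in 6.02%. These matches describe the letters and are not evidence of binding.

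Total counts lay between 15078631 and 20925452 per library. The spread was unequal: the biological coefficient of variation, the spread of a gene between libraries beyond counting error, was 5.78% in prefrontal cortex and 14.9% in striatum. Summed CPM (read counts scaled to TMM-normalised library totals) of 15 of 15 striatal projection neuron markers was 994 to 1730 in prefrontal cortex and 2812 to 14900 in striatum, and that of 12 of 12 cortical excitatory neuron markers was 3375 to 3638 in prefrontal cortex and 322 to 1403 in striatum. The region labels thus had the higher level of their own markers, but the striatal libraries differed in make-up. Lesioned striatum 1 had the highest projection neuron sum, 14900 CPM. Control striatum 2 had the lowest, 2812 CPM, with the highest cortical sum, 1403 CPM, and a choroid plexus and ependymal sum (8 of 8 genes) of 2125 CPM against 50.8 to 100.1 in the other 5 striatal libraries. Markers of hypothalamus and basal forebrain border (11 of 14 genes, the others being left out of the tests) summed to 267 to 804 CPM in striatum and 36.5 to 45.4 in prefrontal cortex. Results in striatum are therefore also given without lesioned striatum 1, control striatum 2 or both. In such bulk samples, fewer cells of a type and less RNA per cell cannot be told apart.

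Per kilobase of the longest transcript, the control prefrontal cortex held most RNA of Abhd12, 159 ± 4.4 CPM per kb (SD, n = 3), which encodes a serine hydrolase of 2-AG and lysophosphatidylserine. Mgll, the gene of the enzyme that clears most 2-AG in brain, followed with 95.6 ± 4.2, and Cnr1 with 39.4 ± 2.0 CPM per kb. Dagla stood at 29.2 ± 0.55, Abhd6 at 27.9 ± 1.2 and Faah at 19.2 ± 0.86 CPM per kb. Daglb, the diacylglycerol lipase best known from microglia and macrophages, was at 10.7 ± 0.11 and Napepld, the lowest member, at 4.68 ± 0.50 CPM per kb. Dagla RNA was thus above Daglb RNA per length in all 4 groups. In lesioned striatum Cnr1 had rank 2, at 56.5 ± 27, above Mgll at 42.2 ± 6.8 CPM per kb, a gap within the spread of the 3 libraries. The ranks between the first and the last depend on the transcript length used: on the mean length of a gene's transcripts, Faah moved from rank 6 to rank 4 in control prefrontal cortex, and Mgll stood above Cnr1 in lesioned striatum.

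**Figure D1:**
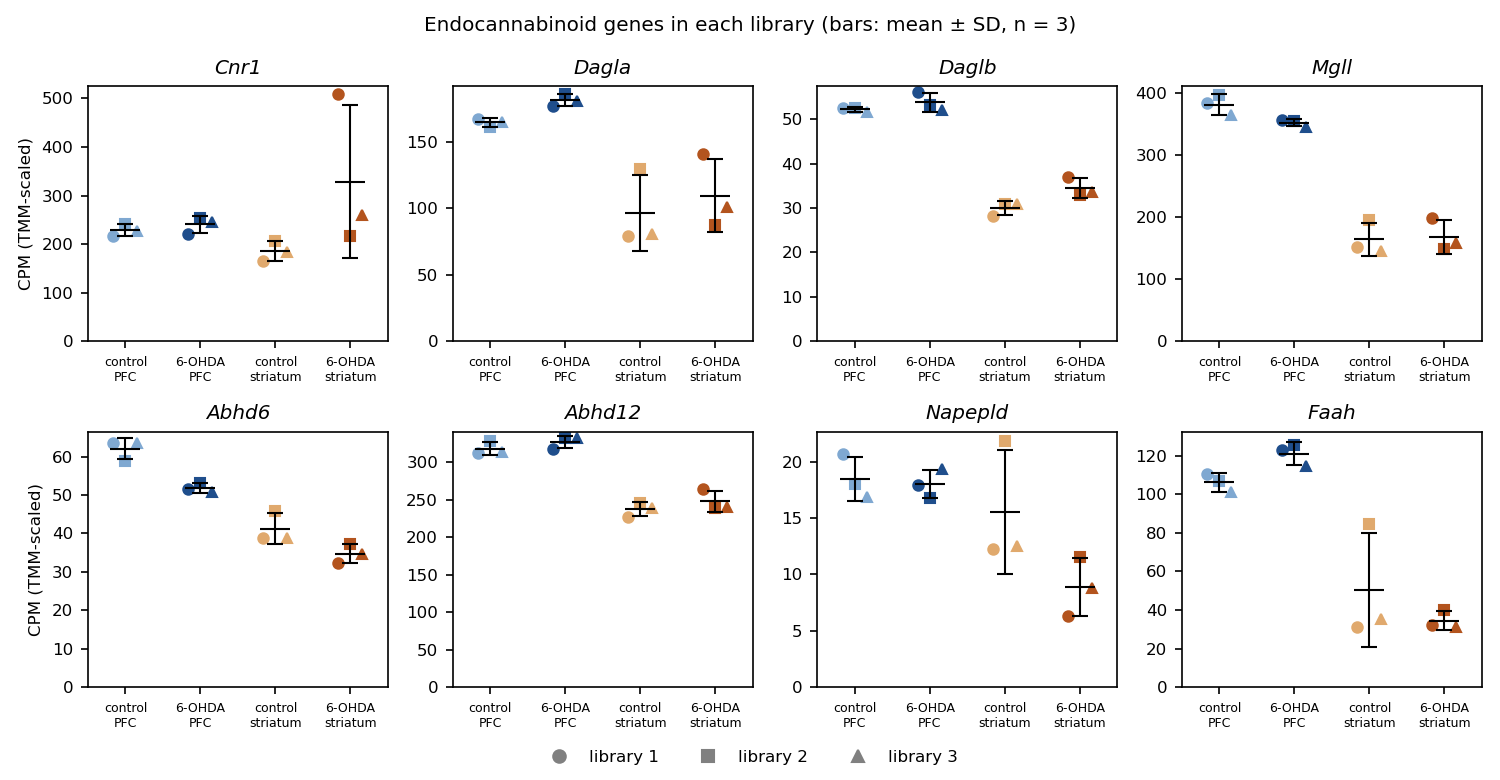
CPM (vertical axes, from 0) of the 8 genes in each of the 12 libraries, with the group mean and SD (n = 3) as bars and the library number as the marker shape. Abhd6 separated all 4 groups, while Cnr1 was highest in lesioned striatum 1 (509 CPM), and Faah and Napepld in striatum were highest in control striatum 2 (84.6 and 21.9 CPM).

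Within the controls, nearly the whole set was lower in striatum than in prefrontal cortex: 7 of 8 members passed the test, against 21% of all genes tested that were lower and 42.3% in either direction (edgeR quasi-likelihood test, Benjamini-Hochberg adjustment over all genes). The median log2 fold change (striatum over prefrontal cortex) of the 8 was -0.68, beside 0.02 over all genes tested. Mgll had the largest difference. It measured 383, 397 and 364 CPM in control prefrontal libraries 1 to 3 and 152, 195 and 145 CPM in control striatal libraries 1 to 3. All striatal libraries lay far below all prefrontal ones, with a log2 fold change of -1.21 (adjusted p = 0.000108, SE 0.112).

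Both diacylglycerol lipase genes were lower in control striatum. Daglb measured 52.4, 52.6 and 51.6 CPM in prefrontal cortex against 28.2, 31.0 and 30.9 CPM in striatum, a log2 fold change of -0.80 (adjusted p = 7.32e-05, SE 0.0677). Dagla, the main neuronal 2-AG synthase, measured 167, 161 and 165 CPM against 79.1, 129.7 and 80.4 CPM (-0.77, SE 0.177, adjusted p = 0.00908). Its groups did not overlap, with control striatum 2 between the other striatal libraries and cortex. The minor 2-AG hydrolases Abhd6 (-0.59, SE 0.0866, adjusted p = 0.00102) and Abhd12 (-0.42, SE 0.0599, adjusted p = 0.000886) were lower by less. Without control striatum 2, the values were -1.36 for Mgll, -0.82 for Daglb, -1.045 for Dagla, -0.68 for Abhd6, -0.45 for Abhd12 and -0.38 for Cnr1, all called.

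Faah measured 110, 107 and 101 CPM in control prefrontal cortex against 31.3, 84.6 and 35.4 CPM in control striatum. Control striatum 2 stood far from the other 2, and the log2 fold change was -1.07 (SE 0.332, adjusted p = 0.0317), or -1.67 (adjusted p = 1.53e-08) without that library. The call was lost when any other of the 6 libraries was left out (adjusted p 0.0696 to 0.0941) and with DESeq2 (0.0501). Napepld, at 20.7, 18.0 and 16.8 CPM in prefrontal cortex and 12.3, 21.9 and 12.5 CPM in striatum, was the member that missed the test (-0.25, SE 0.221, adjusted p = 0.395). Here too control striatum 2 was the high library, and without it the value was -0.58 with an adjusted p of 0.00172. For Faah and Napepld, the library with the high value was also the one with the highest sum of cortical neuron markers in striatum. Its sums of CCK interneuron (221.6 CPM), meningeal fibroblast (543.6 CPM) and choroid plexus and ependymal markers (2125 CPM) were the highest in striatum as well. The part of any of these markers in the result was not tested.

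Cnr1 showed the smallest regional difference of the called members. Control prefrontal libraries measured 217, 241 and 228 CPM and control striatal libraries 166, 207 and 185 CPM, a log2 fold change of -0.30 (adjusted p = 0.0267, SE 0.088). The groups did not overlap, with a small gap between them. Leaving out control prefrontal library 2 or 3 or control striatal library 1 or 3 ended the call (adjusted p 0.0713 to 0.1), as did upper-quartile scaling (-0.24, adjusted p = 0.0576) and the fit of all 12 libraries (adjusted p = 0.331).

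After the lesion, again 7 of 8 members were lower in striatum (22.5% of all genes tested were lower, and 45.2% differed in either direction). Here Napepld passed and Cnr1 did not. Faah had the largest difference, with 123, 126 and 114 CPM in lesioned prefrontal cortex and 32.1, 40.0 and 31.0 CPM in lesioned striatum. These groups were far apart, at a log2 fold change of -1.81 (adjusted p = 2.04e-05, SE 0.105), a fold of 0.285. Mgll followed at -1.06 (SE 0.111, adjusted p = 0.000269). Napepld was at -1.01 (SE 0.196, adjusted p = 0.00444), Dagla at -0.72, Daglb at -0.64, Abhd6 at -0.57 and Abhd12 at -0.40. Cnr1 stood at 0.45 (SE 0.286, adjusted p = 0.232), a value set by lesioned striatum 1, without which it was -0.01. The other values without that library were -1.765 for Faah, -1.21 for Mgll, -0.95 for Dagla, -0.82 for Napepld, -0.70 for Daglb, -0.53 for Abhd6 and -0.45 for Abhd12, all called. Control and lesioned comparisons use different libraries, but each library enters a lesion comparison as well, so these values are not independent of those that follow.

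**Figure D2:**
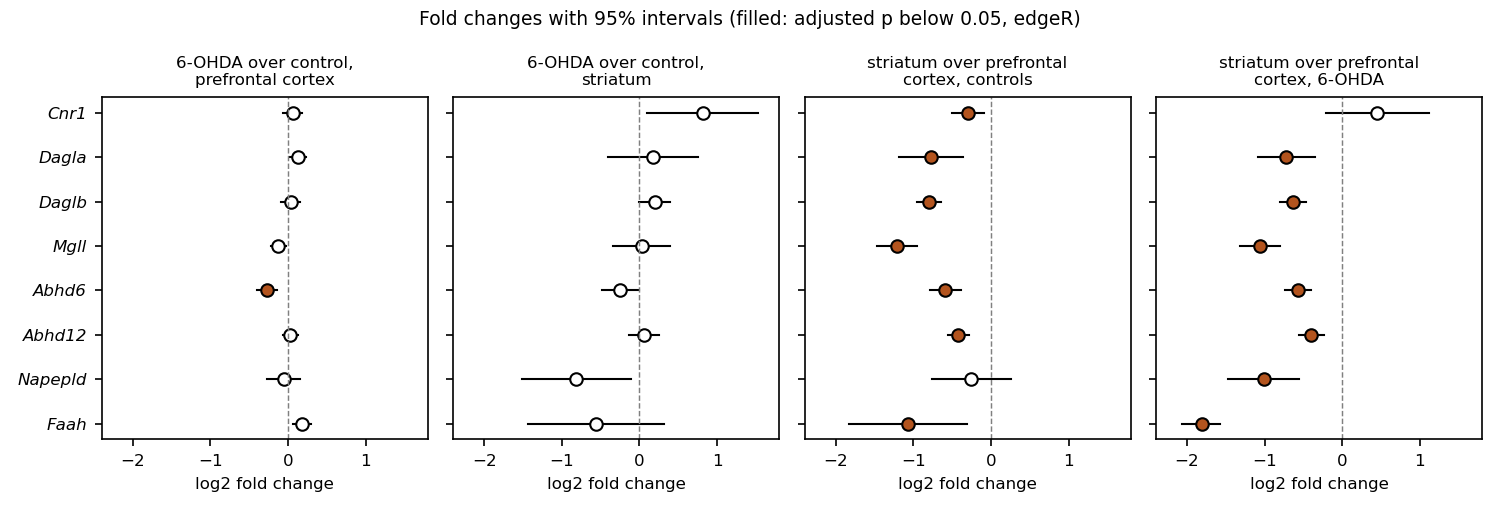
Log2 fold changes (points) with 95% intervals (lines) of the 8 genes in 4 comparisons, filled where the adjusted p of the edgeR test is below 0.05. In both comparisons of regions 7 of 8 genes lie left of 0 and are filled, while the lesion comparisons hold 1 filled point, Abhd6 in prefrontal cortex.

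In prefrontal cortex, the lesion comparison called 1 of 8 members, Abhd6, which was lower. Over all genes tested the share called was 5.73% (803 of 14018) and the share called lower 2.28% (319), so the members' count of 1 is close to that background. At an unadjusted p below 0.05 there were 4 of 8 members, beside 20.6% of all genes tested. Abhd6, a membrane-bound hydrolase at postsynaptic sites that takes 2-AG close to where it is made, measured 51.7, 53.2 and 50.7 CPM in lesioned libraries 1 to 3 and 63.6, 58.9 and 63.6 CPM in control libraries 1 to 3. Every lesioned library was below every control. The log2 fold change was -0.27 (SE 0.0575, 95% interval -0.40 to -0.15, adjusted p = 0.0148), a fold of 0.828. The direction held when each library was left out in turn, but the call was lost without lesioned library 1 (adjusted p = 0.0605), 2 (0.0627) or 3 (0.0699), without control library 1 (0.0526) and in the fit of all 12 libraries (0.229). Summed astrocyte markers (10 of 10 genes, none at 0) were also lower in this comparison, at 5394 to 5571 CPM in lesioned and 5940 to 6353 CPM in control libraries. So was the sum of endothelial and mural markers (8 of 8 genes summed), at 322 to 346 CPM against 348 to 390 CPM. Gene by gene, 2 of these 8 were lower without overlap and 1 was higher, where groups did not overlap for 25.3% of all genes tested. The sums of the other 10 of 12 lists overlapped. The part of these markers in the result was not tested.

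For 3 other members, the prefrontal groups did not overlap and the adjusted p missed the threshold. In all, groups did not overlap for 4 of 8 members, beside 25.3% of all genes tested. Mgll measured 356, 355 and 346 CPM after the lesion and 383, 397 and 364 CPM in controls (-0.13, SE 0.0453, adjusted p = 0.128). Dagla measured 177, 186 and 181 CPM after the lesion against 167, 161 and 165 CPM (0.13, SE 0.0463, adjusted p = 0.135). The synthase thus stood slightly above its controls and the hydrolase slightly below, each by less than the test requires. Faah measured 123, 126 and 114 CPM against 110, 107 and 101 CPM (0.18, SE 0.0555, 95% interval 0.06 to 0.30, adjusted p = 0.0837).

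The remaining 4 members overlapped in prefrontal cortex. Cnr1 measured 222, 255 and 245 CPM after the lesion beside 217, 241 and 228 CPM in controls, a log2 fold change of 0.06 (adjusted p = 0.604, SE 0.0567). Daglb and Abhd12 were each at 0.03 (adjusted p = 0.811 and 0.762), and Napepld at -0.06 (SE 0.0995, adjusted p = 0.804). The median absolute log2 fold change of the 8 members was 0.0932, beside 0.0996 over all genes tested.

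In striatum none of the 8 members passed the edgeR test for the lesion, where 0.028% of all genes tested did (4 of 14288). At an unadjusted p below 0.05 there were 3 of 8 members, beside 17.3% of all genes. DESeq2 called none of the 8, beside 529 of the 14288 genes tested. Groups did not overlap for 4 of 8 members (25.8% of all genes tested). Cnr1 measured 509, 217 and 259 CPM in lesioned libraries 1 to 3 and 166, 207 and 185 CPM in controls. All 3 lesioned libraries were above all controls, but lesioned library 1 stood far above the other 2. The log2 fold change was 0.82 (SE 0.306, 95% interval 0.10 to 1.53, adjusted p = 0.249), and its size exceeded that of 95.3% of all genes tested. Without lesioned striatum 1 it was 0.35 (SE 0.122, adjusted p = 0.316), and without control striatum 2 as well it was 0.44 (SE 0.101, adjusted p = 0.117). Projection neuron markers, none at 0, summed to 14900, 5881 and 8507 CPM in the same lesioned libraries and 4097, 2812 and 4512 CPM in the controls, so that lesioned library 1 was highest in both. All 3 lesioned libraries were above all controls in this sum. Gene by gene, 14 of its 15 genes were higher without overlap and 0 lower. Of the 12 marker lists, 3 others also separated lesioned from control striatum. The microglia sum (8 of 8 genes summed) was higher, at 417 to 524 CPM against 333 to 411 CPM. Gene by gene, 3 of these 8 were higher without overlap and 0 lower. The meningeal fibroblast sum (6 of 6 genes summed) was lower, at 149 to 297 CPM against 439 to 544 CPM, with 5 genes lower without overlap and 0 higher. So was the choroid plexus and ependymal sum, at 50.8 to 68.7 CPM against 78.9 to 2125 CPM. Of its 8 genes, 3 were lower without overlap and 0 higher, and Kcnj13 was at 0 in all 3 lesioned libraries. The part of these markers in the values of Cnr1 and of the other members in striatum was not tested.

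Napepld measured 6.33, 11.5 and 8.78 CPM in lesioned striatum and 12.3, 21.9 and 12.5 CPM in controls. The groups did not overlap, and lesioned library 1 was the lowest and control library 2 the highest. The log2 fold change was -0.81 (SE 0.298, 95% interval -1.51 to -0.11, adjusted p = 0.243), -0.48 without control striatum 2 and -0.29 with both of these libraries left out. Faah measured 32.1, 40.0 and 31.0 CPM after the lesion and 31.3, 84.6 and 35.4 CPM in controls, with overlapping groups. Its value of -0.56 (SE 0.372, adjusted p = 0.455) turned to 0.04 without control striatum 2, the library high in cortical neuron and choroid plexus markers, so no direction can be given for Faah.

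Abhd6 measured 32.3, 37.4 and 34.6 CPM in lesioned striatum and 38.8, 45.9 and 38.9 CPM in controls. As in prefrontal cortex, every lesioned library was below every control, with a log2 fold change of -0.25 (adjusted p = 0.271, SE 0.102), -0.16 without control striatum 2 and -0.11 with both libraries left out. Daglb was at 37.0, 33.0 and 33.5 CPM against 28.2, 31.0 and 30.9 CPM, also without overlap (0.19, SE 0.0857, adjusted p = 0.299), and 0.17 without both striatal libraries that stand apart. Dagla (0.18, SE 0.247), Mgll (0.03, SE 0.158) and Abhd12 (0.05, SE 0.083) had overlapping groups and adjusted p of 0.729, 0.937 and 0.75. Without lesioned striatum 1, Dagla was at -0.047 and Mgll at -0.11, so neither has a direction. With both libraries left out, Dagla was at 0.23, Mgll at 0.037 and Abhd12 at 0.036, none called.

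**Figure D3:**
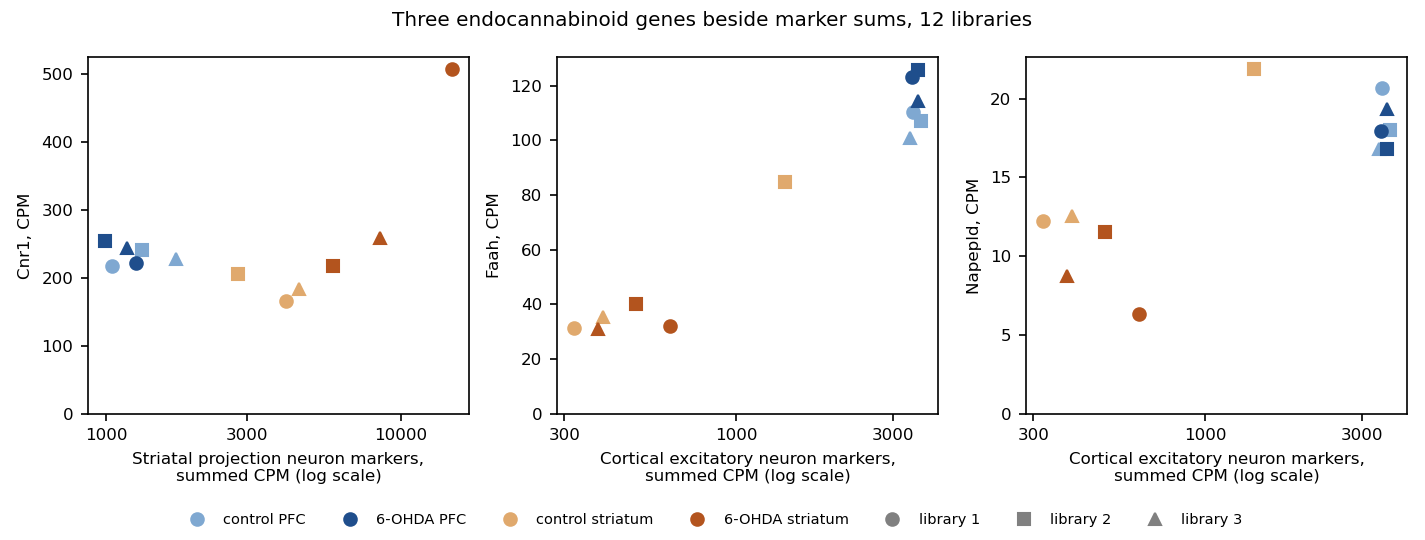
CPM of Cnr1, Faah and Napepld (vertical axes, from 0) against the summed CPM of marker genes (horizontal axes, log scale), 1 point per library, coloured by group with the library number as the marker shape. Lesioned striatum 1 has the highest Cnr1 (509 CPM) and projection neuron sum (14900 CPM), and control striatum 2 stands between the other striatal libraries and the prefrontal ones in Faah (84.6 CPM) and the cortical sum (1403 CPM).

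Whether the lesion difference itself differed between regions was tested in 1 fit of all 12 libraries. No member passed (0.0825% of all genes tested did, 12 of 14545), and 2 of 8 had an unadjusted p below 0.05, beside 11.7% of all genes. The difference of log2 fold changes, striatum minus prefrontal cortex, was 0.75 for Cnr1 (SE 0.334, 95% interval 0.02 to 1.48, adjusted p = 0.414). Napepld was at -0.76 (SE 0.325, adjusted p = 0.4) and Faah at -0.74 (SE 0.395, adjusted p = 0.493). For Abhd6 the difference was 0.02 (SE 0.111, adjusted p = 0.968), with a 95% interval of -0.23 to 0.26. The 12-library fit pools the spread of the regions, which is larger than that of prefrontal cortex alone.

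The order of the 4 groups differed from member to member. Abhd6 was the member with all groups apart, in the order control prefrontal cortex (62.1 ± 2.7 CPM, SD, n = 3), lesioned prefrontal cortex (51.9 ± 1.2), control striatum (41.2 ± 4.0) and lesioned striatum (34.8 ± 2.5). Mgll ran from control prefrontal cortex (381 ± 17) over lesioned prefrontal cortex (352 ± 5.7) to the striatal groups, which overlapped at 168 ± 27 and 164 ± 27 CPM. Dagla and Faah had lesioned prefrontal cortex first (181 ± 4.5 and 121 ± 5.9 CPM) and control prefrontal cortex second, with striatal groups that overlapped. In Daglb and Abhd12 the prefrontal groups overlapped, and in Napepld the first 3 groups did, with lesioned striatum (8.88 ± 2.6 CPM) below them. Cnr1 had lesioned striatum first (328 ± 157 CPM), overlapping both prefrontal groups, and control striatum last (186 ± 20 CPM).

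The balance of synthesis, breakdown and receptor RNA was also taken as the ratio of counts within a library, which needs no scaling between libraries. The 4 pairs were chosen with the counts in view, and with 3 libraries against 3 an exact two-sided permutation test cannot go below p = 0.1. The ratio of Dagla to Mgll in prefrontal cortex was 0.496, 0.523 and 0.523 after the lesion and 0.436, 0.406 and 0.454 in controls. All lesioned libraries were above all controls, with means of 0.514 ± 0.016 and 0.432 ± 0.024 (SD, n = 3, exact p = 0.1, adjusted 0.267 over the 8 tests). In striatum the ratio of Cnr1 to Mgll was 2.56, 1.47 and 1.65 after the lesion and 1.09, 1.06 and 1.27 in controls, also apart (1.89 ± 0.58 and 1.14 ± 0.11, exact p = 0.1, adjusted 0.267). Cnr1 to Dagla in striatum stood at 2.89 ± 0.63 and 2 ± 0.37, also apart (exact p = 0.1), while the exact p of the other 5 comparisons lay between 0.2 and 0.4. Lesioned striatum 1 was the highest library in both of these striatal ratios, and the ratio tests were not repeated without it.

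**Figure D4:**
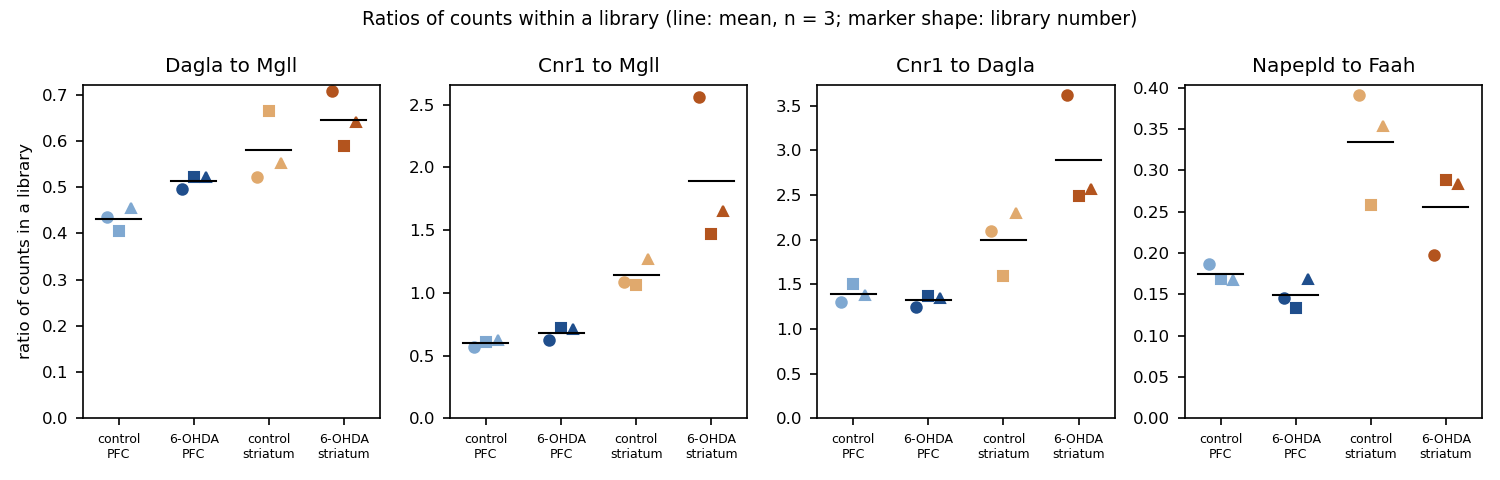
Ratios of counts within each library (vertical axes, from 0) for 4 pairs of genes, with the mean of each group of 3 as a line and the library number as the marker shape. Dagla to Mgll in prefrontal cortex (0.496 to 0.523 after the lesion, 0.406 to 0.454 in controls) does not overlap between lesioned and control libraries. In striatum, neither Cnr1 to Mgll (1.47 to 2.56 and 1.06 to 1.27) nor Cnr1 to Dagla (2.49 to 3.62 and 1.59 to 2.3) overlaps.

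Around these 8 genes, a list of 38 further genes of the pathway held 36 in the table, of which 30 were tested in at least 1 comparison. In prefrontal cortex the lesion comparison called 2 of 29 higher and 1 lower, and 26 were not called. Over all genes tested 5.73% were called, 2.28% as lower. Chrm3, a muscarinic receptor whose signalling through phospholipase C can drive 2-AG release, measured 95.1, 96.7 and 96.3 CPM after the lesion and 72.6, 77.1 and 66.7 CPM in controls, far apart (0.40, SE 0.0575, adjusted p = 0.00199). Plcb4, a phospholipase C downstream of such receptors, measured 104, 105 and 111 CPM against 84.3, 94.8 and 84.8 CPM (0.27, SE 0.0569, adjusted p = 0.0144). The Plcb4 call was lost without lesioned library 2 (adjusted p = 0.0661) or 3 (0.0784), and the calls of both genes in the fit of all 12 libraries (0.728 for Plcb4 and 0.135 for Chrm3).

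Fabp7, a fatty acid binding protein of astrocytes and neural progenitors that can carry anandamide inside cells, was the listed gene called lower by the lesion in both regions. It measured 12.5, 16.6 and 11.7 CPM in lesioned and 26.9, 17.0 and 19.4 CPM in control prefrontal cortex, where lesioned library 2 and control library 2 nearly met (-0.66, SE 0.165, adjusted p = 0.033). In striatum it measured 10.7, 14.1 and 11.8 CPM against 29.9, 30.03 and 34.0 CPM, with no overlap (-1.37, SE 0.125, adjusted p = 0.0427), and was 1 of the 4 genes called there, with the other 28 listed genes not called. The prefrontal call was lost without lesioned library 1 (adjusted p = 0.122) or 3 (0.14) or control library 1 (-0.43, 0.105), in the 12-library fit (0.187) and when 1830 genes whose deposited values are all multiples of 11, left out of the tests here, were kept (0.0619). The striatal call was lost when any 1 library was left out (adjusted p 0.0686 to 0.225) with limma-voom (0.0652), with group weights (0.0684) and when those genes were kept (0.0696), while its direction held, and it was -1.31 (adjusted p = 0.0191) without lesioned striatum 1 and control striatum 2. The astrocyte marker sums given above were lower after the lesion in prefrontal cortex, whereas in striatum they were 4451 to 5299 CPM in lesioned and 5082 to 5244 CPM in control libraries, overlapping. That sum is mostly Slc1a2, and 5 of the 10 astrocyte genes, Aqp4, Fgfr3, Gfap, Slc1a3 and Sox9, were lower in every lesioned striatal library than in every control, as were 6 of 10 in prefrontal cortex, with 1 of 10 higher in each region. Over all genes tested, groups did not overlap for 25.8% in striatum and 25.3% in prefrontal cortex. The part of the astrocyte genes in the Fabp7 values was not tested.

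**Figure D5:**
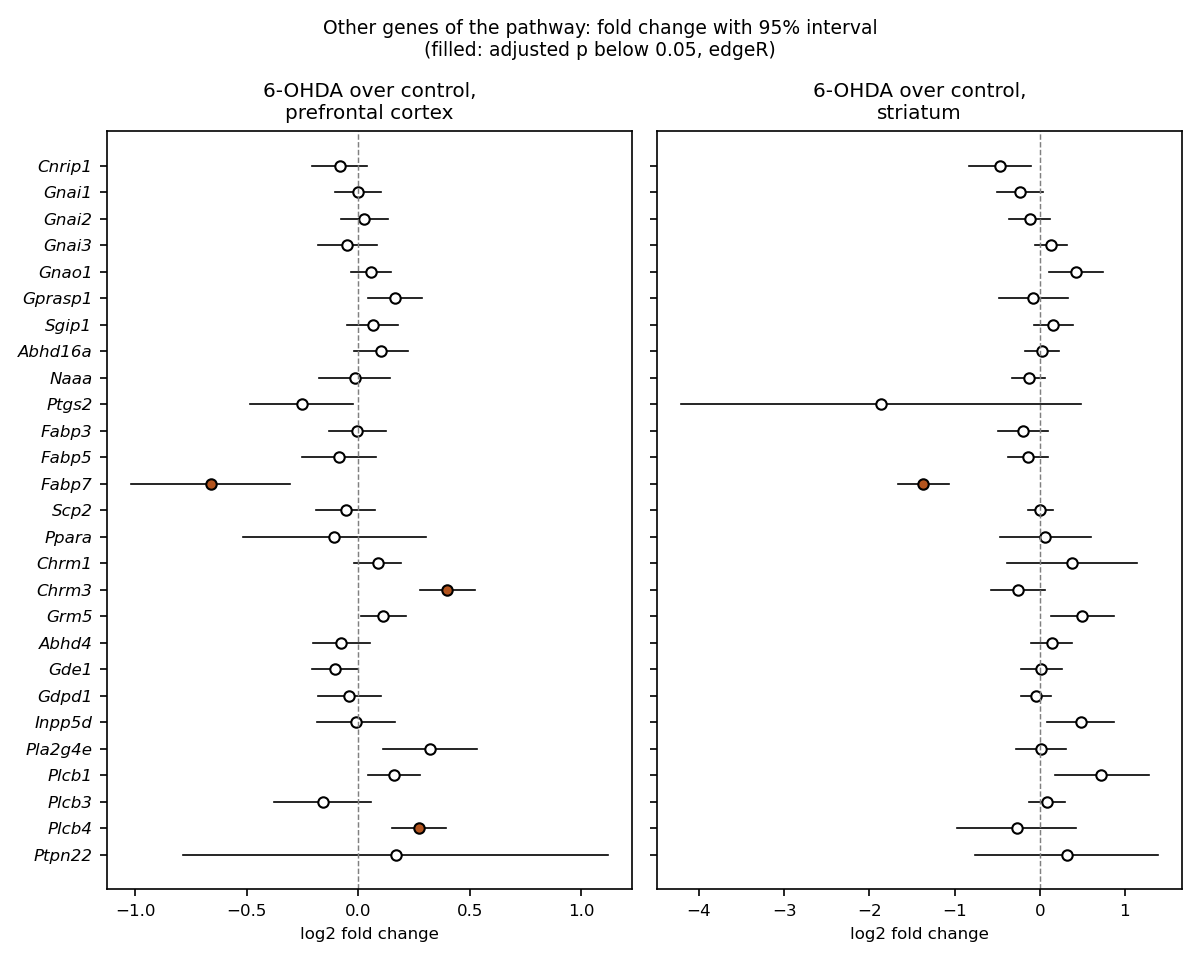
Log2 fold changes (points, lesioned over control) with 95% intervals (lines) of other pathway genes tested in both regions, filled where the adjusted p of the edgeR test is below 0.05; the horizontal scales differ. Fabp7 is filled on the left of 0 in both regions (-0.66 and -1.37), and Chrm3 (0.40) and Plcb4 (0.27) are filled on the right in prefrontal cortex.

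Between regions, 13 of the 30 tested pathway genes were lower in control striatum and 6 higher, where 42.3% of all genes tested were called and 21% were lower. Among the lower were Fabp3, another fatty acid carrier (-1.14, SE 0.0794), the muscarinic receptor Chrm3 (-1.15, SE 0.102) and the phospholipase Pla2g4e, an N-acyltransferase that makes the precursor of anandamide (-1.04, SE 0.103). The higher ones included Gprasp1, listed as a CB1 partner (0.83, SE 0.125), and Fabp7 (0.57, SE 0.163). After the lesion 10 of 29 were lower and 5 higher (45.2% of all genes called, 22.5% lower), with Chrm3 at -1.81 (SE 0.0901) and Cnrip1, a CB1-binding protein, at -1.13 (SE 0.108). Gprasp1 was again higher (0.59, SE 0.132), while Fabp7 was not called (-0.15, SE 0.165). Ptgs2, a cyclooxygenase that can oxidise endocannabinoids, was at -2.79 (SE 0.143) after the lesion. In controls it was at -1.18 (SE 0.803, adjusted p = 0.27), with control striatal libraries spread from 1.4 to 22.1 CPM. Of the other receptors on the list, 4 were at or near the detection limit: Cnr2, the CB2 receptor, had 2 to 8 counts per library, Gpr55 had 0 to 11, Trpv1 had 0 to 6 and Gpr18 was listed at 0 in all 12 libraries. A further receptor, Gpr119, was at 0 in prefrontal cortex and at 0 to 1.93 CPM in striatum, and was tested in no comparison. Its counts are all multiples of 11, so it was among the genes left out, and its level is not read as expression. Among the nuclear receptors that these lipids can bind, Ppara had 41 to 68 counts per library and was called in no comparison. Pparg measured 4.84, 3.79 and 4.91 CPM in control prefrontal cortex and 0.233, 0.403 and 0.254 CPM in control striatum, far apart (-3.90, SE 0.285, adjusted p = 3.94e-05). Its striatal values lie close to the level of 3 counts, 0.152 to 0.175 CPM in these libraries, so the size of the fold change is uncertain.

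Across the 12 libraries, the genes whose log2 CPM ran most like a member's, by Pearson's r, were Mink1 (0.974) and Anks1b (0.972) for Cnr1, Itpka (0.988) and Chrm1 (0.987) for Dagla, and Cabp1 and Syt16 (both 0.992) for Daglb. For Mgll they were Gramd1b (0.996) and Lmo4 (0.995), for Abhd6 Ap2s1 and Pdha1 (both 0.977), and for Abhd12 St3gal5 (0.997) and Atrnl1 (0.996). Napepld ran with Grhl1 (0.992) and Nrip3 (0.970), and Faah with Nptx1 (0.996), a cortical marker on the list above, and Nrn1 (0.993). These are descriptions: the 12 libraries fall into 2 regions, so any gene with a like regional difference scores high. On deviations from the 4 group means, 0 to 2 of the 5 genes most like a member were the same, and St3gal5 (0.971) for Abhd12 and Grhl1 (0.98) for Napepld stayed first.

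Among the members themselves, deviations from the group means ran together in Dagla and Mgll (r = 0.958 over 12 libraries), in Cnr1 and Abhd12 (0.88) and in Abhd6 and Napepld (0.87). Faah followed Abhd6 (0.825) and Napepld (0.809). Against the mean log2 CPM of marker lists, the deviations of Cnr1 (-0.909), Dagla (-0.904) and Mgll (-0.912) ran opposite to the hypothalamic and basal forebrain border list (9 genes past the low-count filter), those of Faah with the cortical excitatory list (0.905) and those of Napepld with the CCK interneuron list (0.914). These deviations are largest in striatum, where libraries 1 of the lesioned and 2 of the control group also stand out in the marker sums. The part of sample make-up in these correlations was not tested.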

How the data were processed

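Read counts per gene symbol were deposited by the authors as 1 table of raw counts for 12 mRNA libraries. Per the labels' protocols, mRNA from 500 ng of total RNA (RNA integrity number at least 8.9) went into stranded library preparation and paired reads of 101 bp. The submitters' processing notes list STAR 2.7.1a, featureCounts and mm10. The annotation and strand setting were not given in the sources used here.

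Of 18140 genes above 0, 1830 held only multiples of 11 and were at 0 in lesioned prefrontal library 1. They carried 0.144% of the counts and, since a count model assumes reads, were left out of the main tests. No member is among them.

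In R 4.3.3, edgeR 4.0.16 (filterByExpr, TMM, quasi-likelihood F test) was run on the 6 libraries compared (4 residual degrees of freedom), or on all 12 for the difference between regions. P-values were two-sided and adjusted by Benjamini and Hochberg over all genes tested, with calls below 0.05. Standard errors are the absolute log2 fold change over the root of F. Plotted CPM are counts over TMM-scaled totals, and correlations used log2 CPM with a prior count of 2. Alternatives were RLE and upper-quartile factors, DESeq2 1.42.0, limma-voom (limma 3.58.1), the same with group weights, other filters, the multiples of 11 kept, a GC correction, a replicate block, a 12-library fit and each library left out. The edgeR test was tested on simulated counts. Intervals cover the spread between libraries. No library pair agreed within sampling noise.

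Members and lists were chosen with earlier results of these data known. All 8 members are named whatever their values. Of the other pathway genes, at most 6 called genes with the smallest p per comparison, among which those described were picked, and the receptors Cnr2, Gpr55, Trpv1, Gpr18, Gpr119 and Ppara were named after their values were seen. So were Gprasp1 and Fabp7 in the comparisons of regions. Values of 1 listed gene are not reported here, but the counts hold it. The 2 genes with the highest r per member are given from a minimum mean of 1 CPM.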

Additional observations from a re-analysis of the deposited data

How the results depend on the processing

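Of 816 values of the members' log2 fold changes under alternatives, 778 kept their direction and side of the threshold, 17 lost the call, 1 gained it and 20 changed sign. All sign changes came from leaving out libraries. The number of members called for the lesion in prefrontal cortex (1 as reported) was 0 in the 12-library fit, which pools both regions' spread, and 0 to 1 with a library left out. With libraries left out, log2 fold changes after the lesion ranged from -0.0020 to 0.055 (Daglb) and -0.12 to 0.042 (Napepld) in prefrontal cortex, and from -0.047 to 0.45 (Dagla), -0.11 to 0.175 (Mgll) and -0.82 to 0.090 (Faah) in striatum. Cnr1 between regions after the lesion ranged from -0.015 to 0.68. The difference between regions ranged from -0.17 to 0.32 for Dagla, -0.039 to 0.16 for Abhd6 and -0.021 to 0.047 for Abhd12. Without lesioned striatum 1 and control striatum 2 together, Faah in striatum was 0.090. Genes called after the lesion ranged from 30 (12-library fit) to 1010 in prefrontal cortex, beside 803 reported, and from 0 to 1040 (12-library fit) in striatum, beside 4 reported and 529 with DESeq2. For the difference between regions they ranged from 0 to 172, beside 12 reported and 116 with DESeq2. Between regions, 5 to 8 members were called over all alternatives. Genes called there ranged from 4665 to 6805 in controls, beside 6029 reported, and from 4687 to 7721 after the lesion, beside 6426 reported. Whether the replicate numbers pair the libraries could not be decided, since 3 libraries per group give few deviations. Same-number correlations of deviations were -0.128 to 0.118, with 0 to 4 of 6 libraries of a comparison closest to their own number. Between regions they were -0.00555 to 0.118 in controls (4 of 6 libraries closest) and -7.11e-05 to 0.107 after the lesion (3 of 6). With a replicate block, 1 member was called for the lesion in prefrontal cortex, 7 in each comparison of regions and 0 in the others, as without it. Genes called for the lesion went from 803 to 634 in prefrontal cortex, from 4 to 0 in striatum and from 12 to 6 for the difference. Between regions they went from 6029 to 5590 in controls and from 6426 to 5853 after the lesion. The block also left Fabp7 in striatum without a call (-1.37, adjusted p = 0.189, or 0.204 with a GC and length correction). Depth limits the receptors Cnr2, Gpr55, Trpv1 and Gpr18, with at most 11 counts per library, and 3 libraries per group limit every result.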
